A study of Mus musculus with 37 samples.

Results

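The synaptonemal complex is the protein zipper that holds paired homologous chromosomes together in meiosis, and 8 of its genes were followed here in mouse primordial germ cells (PGCs), from which eggs and sperm later arise. The genes were taken by symbol as Sycp1, Sycp2, Sycp3, Syce1, Syce2, Syce3, Tex11 and Tex12, and all 8 were found among the 24318 genes of each deposited table. The group of interest at each stage was DCKO, a conditional knockout of Dnmt1 whose genotype the labels give as Dnmt1 -/-, and the groups compared with it were labelled wild type and are called controls here. Dnmt1 encodes the maintenance DNA methyltransferase, which copies methylation onto newly made DNA. Embryonic stage E11.5, in days after mating, had 10 DCKO libraries (6 female, 4 male) and 8 control libraries (4 female, 4 male). E10.5 had 3 DCKO libraries (2 female, 1 male) and 4 control libraries (2 female, 2 male). The remaining 12 of 37 labelled samples, from E13.5, were not analysed here.

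All groups carried the Oct4-IRES-Gfp reporter, and GFP-positive cells were sorted from them. The matings joined mothers homozygous for the Dnmt1 2lox allele with fathers that carried Blimp1-Cre, a driver active in germ cells from soon after their specification and also in some other embryonic cells. A control embryo from such a mating would carry the maternal 2lox allele. The labels call the controls wild type and do not say whether they carried the Cre transgene. Dnmt1 averaged 29.6 ± 16.3 RPKM over 10 DCKO libraries and 130 ± 76.6 RPKM over 8 controls (mean ± SD) at E11.5. At E10.5 Dnmt1 averaged 21.5 ± 7.43 RPKM over 3 DCKO libraries and 90.9 ± 15.1 RPKM over 4 controls (mean ± SD). RPKM scales reads by transcript length and by library size, which makes levels of genes of different length roughly comparable. Its sum over all genes still differed between libraries.

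The complex has lateral elements along each chromosome axis, built with SYCP2 and SYCP3. Transverse filaments of SYCP1 bridge the gap between them, and a central element of SYCE1, SYCE2, SYCE3 and TEX12 joins the filaments in the middle. TEX11 is not a structural part: it is an X-linked protein at recombination sites that promotes crossovers and the pairing of chromosomes. Mouse female germ cells enter meiosis in the fetal ovary after the stages studied here, and male germ cells do so only after birth. Several germline genes, Sycp3 among them, have CpG-containing promoters that are methylated in somatic cells and lose methylation in PGCs.

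The start regions of these genes are shown because CpG pairs are the sites at which DNMT1 keeps methylation. RefSeq windows on GRCm38.p6 were matched by symbol for 7 of the 8 genes, all but Tex11, in 9 windows, since Syce2 and Syce3 each had more than 1 annotated start. Only the 250 bases upstream of the start were used. The 4 windows below are those with a match to the E-box CACGTG, which reads the same on both strands, or to the E2F-type motif GCGGGAA, searched on both strands. Both motifs are recognised by DNA-binding subunits of PRC1.6, a repressor complex of germline genes. They are at chr9:50561269-50561518 for Tex12 (minus strand), chr10:88459337-88459586 for Sycp3 (plus strand), chr8:84872008-84872257 for the second Syce2 start (plus strand) and chr3:102936101-102936350 for Sycp1 (minus strand). Each is written 5′ to 3′ on the strand of its gene, and capitals mark the motif matches.
Tex12: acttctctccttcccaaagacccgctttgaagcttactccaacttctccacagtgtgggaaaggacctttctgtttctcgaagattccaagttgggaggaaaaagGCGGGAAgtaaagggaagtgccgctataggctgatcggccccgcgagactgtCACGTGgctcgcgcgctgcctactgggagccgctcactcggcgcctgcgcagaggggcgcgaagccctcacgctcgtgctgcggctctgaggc
Sycp3: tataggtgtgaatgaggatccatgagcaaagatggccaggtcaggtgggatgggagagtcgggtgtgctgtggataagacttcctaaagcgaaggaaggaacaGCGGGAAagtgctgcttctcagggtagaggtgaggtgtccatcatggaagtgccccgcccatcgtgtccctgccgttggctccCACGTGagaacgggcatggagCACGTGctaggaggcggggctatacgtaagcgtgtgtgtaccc
Syce2: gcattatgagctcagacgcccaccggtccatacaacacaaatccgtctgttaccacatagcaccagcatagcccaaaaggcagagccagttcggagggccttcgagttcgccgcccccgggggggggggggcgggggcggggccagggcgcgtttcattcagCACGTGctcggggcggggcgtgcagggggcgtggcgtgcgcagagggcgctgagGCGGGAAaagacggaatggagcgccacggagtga
Sycp1: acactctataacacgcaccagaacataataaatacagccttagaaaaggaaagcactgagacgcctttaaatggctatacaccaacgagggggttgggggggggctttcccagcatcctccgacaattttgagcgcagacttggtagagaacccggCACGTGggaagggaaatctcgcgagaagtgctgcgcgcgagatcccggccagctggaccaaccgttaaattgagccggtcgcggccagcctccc

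Tex12, Sycp3 and the second Syce2 start held both motifs in 1 window, and Sycp1 held the E-box alone. Counted from the annotated start, Sycp3 had 2 E-box matches, at positions -64 and -43, and 1 E2F-type match at -147. Tex12 had its E-box at -93 and its E2F-type match at -145, and Syce2 had them at -88 and -34. Across all 32851 RefSeq mouse windows of the same length, 6.02% held the E-box, 3.82% held the E2F-type motif and 0.338% held both. None of the matches in the 4 sequences shared a base with another. The second Syce2 start had 24 CpG pairs, Tex12 had 20, Sycp1 had 17 and Sycp3 had 12, against a median of 6 over all windows. Syce1 had 13 CpG pairs, Sycp2 had 7, the first Syce2 start had 11 and the Syce3 windows had 5 and 11. None of these windows held either motif. The motifs were chosen with these sequences in view, so the counts are a description, and binding and methylation at these sites were not measured.

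**Figure D1:**
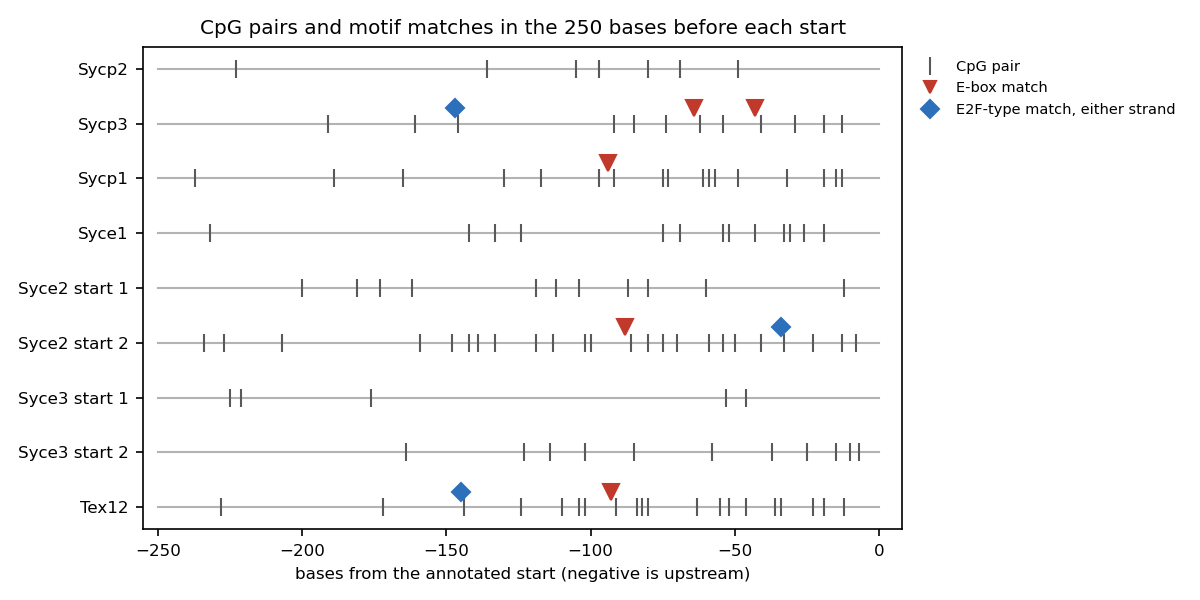
CpG pairs (ticks), E-box matches (triangles) and E2F-type matches (diamonds) in the 250 bases before each annotated start; the x axis is the distance from the start in bases. Matches lie in the Sycp3, Sycp1, second Syce2 and Tex12 windows, and CpG pairs per window number 5 to 24.

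The genes of 1 structure were present at very unequal levels before meiosis. Syce2, a central element protein that assembles with TEX12, averaged 366 RPKM over the 18 E11.5 libraries and stood at the 98.9th percentile of all 24318 genes. Syce2 alone made up between 55.5% and 95.3% of the summed RPKM of the 8 genes in a library. Syce1, a central element protein that binds the end of SYCP1, averaged 29.2 RPKM. Sycp3, which coats the chromosome axis, averaged 25.3 RPKM.

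Tex12 followed with a mean of 18.7 RPKM and Syce3 with 15.7 RPKM, but these means were set by single libraries, since the medians were 7.62 RPKM for Tex12 and 0.615 RPKM for Syce3. Tex11 averaged 5.69 RPKM, Sycp1 2.56 RPKM and Sycp2 0.606 RPKM. Sycp2, the partner of SYCP3 in the lateral element, reached 1 RPKM in only 3 of 18 libraries. By median, too, Sycp2 was the lowest of the 8 at 0.450 RPKM and Syce2 the highest at 321 RPKM, but Syce3 stood below Sycp1, whose median was 1.92 RPKM. The ranges of neighbours in this order overlapped, Syce2 and Syce1 included, although Syce2 was the highest of the 8 within every E11.5 library.

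**Figure D2:**
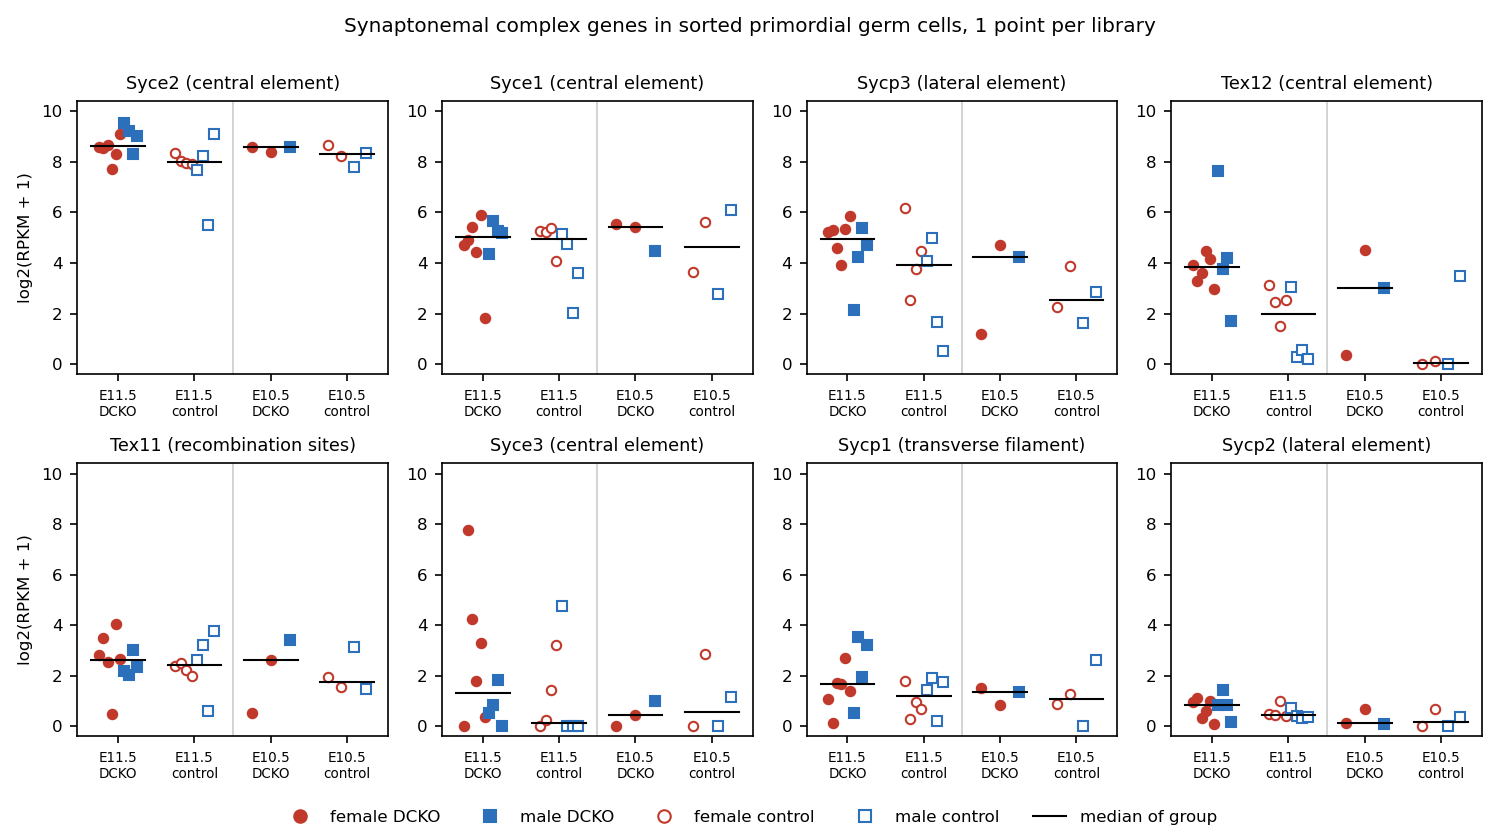
Level of each of the 8 genes as log2(RPKM + 1) (y axis), 1 point per library, with E11.5 and E10.5 DCKO and control groups along the x axis; circles are female, squares male, filled DCKO, open control, and the line is the group median. Tex12 at E11.5 lies higher in DCKO than in control libraries with some overlap, Syce2 is high in nearly all libraries, and Sycp2 is near 0 throughout.

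The E11.5 genotype comparison asked how the RNA of these genes differs between PGCs of the Dnmt1 knockout and controls. Tex12, the central element protein that forms fibres with SYCE2, showed the greatest difference of the 8. Tex12 had 14.1, 8.70, 11.2, 21.1, 16.7 and 6.77 RPKM in the female DCKO libraries and 199, 12.4, 17.6 and 2.26 RPKM in the male ones. Controls had 7.87, 4.55, 1.84 and 4.87 RPKM in females and 7.37, 0.200, 0.491 and 0.163 RPKM in males. In 8 of 10 DCKO libraries Tex12 was above the highest control, and the groups overlapped through female DCKO 6 and male DCKO 4. Male DCKO 1, at 199 RPKM, was far above female DCKO 4, the next library at 21.1 RPKM.

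Differences are given as DCKO minus control on the log2(RPKM + 1) scale, as a log2 fold change with the pseudocount of 1. For Tex12 it was 2.30 (SE 0.62, limma unadjusted p = 0.00143). After adjustment over the 12667 genes tested it did not pass the threshold of 0.05 (adjusted p = 0.696 by limma). For this gene alone, an exact two-sided permutation test (43758 arrangements) gave p = 0.00206, not adjusted over the 8 genes. That test ignored sex, and with splits within each sex only the exact permutation p was 0.00435. Without male DCKO 1 the log2 difference was 1.75 (adjusted p = 0.694 by limma).

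Syce2 had 388, 377, 402, 209, 314 and 544 RPKM in female DCKO libraries and 745, 599, 318 and 517 RPKM in male ones. Levels in controls were 324, 260, 249 and 242 RPKM in females and 205, 301, 44.6 and 551 RPKM in males. In 9 of 10 DCKO libraries Syce2 was above the control median, but the highest of 8 controls, male control 4, was above 8 of 10 DCKO libraries. The log2 difference was 0.91 (SE 0.35, limma unadjusted p = 0.0191, adjusted p = 0.902), and the exact permutation p was 0.0198, or 0.0225 within sex. The low library male control 3 carried much of this difference: without it the log2 difference was 0.55 (adjusted p = 0.711 by limma) and the exact permutation p was 0.0567.

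Sycp3, the lateral element protein, averaged 29.6 ± 15.6 RPKM over 10 DCKO libraries and 20.0 ± 23.3 RPKM over 8 controls (mean ± SD). DCKO libraries lay between 3.40 and 56.4 RPKM with a median of 30.9 RPKM, against 0.436 to 71.8 RPKM and a median of 14.1 RPKM in controls. In 9 of 10 DCKO libraries Sycp3 was above the control median, yet the highest library of all was female control 1. The log2 difference was 1.05 (SE 0.62, adjusted p = 0.912 by limma; exact permutation p = 0.119).

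Sycp1, the transverse filament protein, averaged 3.50 ± 3.50 RPKM over 10 DCKO libraries and 1.39 ± 1.05 RPKM over 8 controls (mean ± SD). In 4 DCKO libraries Sycp1 was above the highest control, which reached 2.70 RPKM, and the lowest of all 18 was also a DCKO library. The log2 difference was 0.75 (SE 0.46, adjusted p = 0.912 by limma; exact permutation p = 0.156).

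The remaining central element genes differed less than their spread. Syce1 averaged 32.1 ± 16.3 RPKM over 10 DCKO libraries and 25.6 ± 14.01 RPKM over 8 controls (mean ± SD), with a log2 difference of 0.39 (SE 0.50, adjusted p = 0.972 by limma). Without male control 3 that value was 0.08. Syce3, which recruits the other central element proteins to SYCP1, was listed at 0 in 2 of 10 DCKO and 4 of 8 control libraries. Its highest values were 214 RPKM in female DCKO 2 and 26.0 RPKM in male control 1, and its median was 1.64 RPKM in DCKO and 0.0915 RPKM in control libraries. The log2 difference of Syce3 was 0.65 (SE 0.94, adjusted p = 0.975 by limma).

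Tex11 averaged 6.03 ± 4.24 RPKM over 10 DCKO libraries and 5.27 ± 3.73 RPKM over 8 controls (mean ± SD), with a log2 difference of 0.12 (SE 0.48, adjusted p = 0.992 by limma). Sycp2 had a mean under the 1 RPKM needed for the test and was not fitted. Its levels were 0.0714 to 1.69 RPKM in DCKO and 0.241 to 1.02 RPKM in control libraries (exact permutation p = 0.235). The groups overlapped for every one of the 8 genes.

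Of the 7 genes tested, 0 passed the adjusted threshold, and 3 of all 12667 genes did (0.0237%). Dnmt1, the targeted gene, was among these 3, with a log2 difference of -2.07 (SE 0.34, adjusted p = 0.0355 by limma). Within 1 sex even Dnmt1 did not pass (adjusted p = 0.567 in females and 0.585 in males by limma). Failure to pass therefore does not show that a gene is unchanged. At an unadjusted limma p under 0.05 there were 2 of the 7, Tex12 and Syce2, both higher in DCKO, against 1.73% of all genes higher at that p and 5.46% in either direction. All 7 log2 differences were above 0, with a median of 0.75, while 45.0% of all genes were above 0 and their median was -0.06. Every DCKO library was above every control library for 1 of the 12667 genes tested (0.00789%), and for 0 of the 7. Percentages of genes in the comparisons here are over the genes tested, not the whole table. Replicates here are libraries that the labels do not tie to separate embryos, so these p-values measure the spread between libraries.

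**Figure D3:**
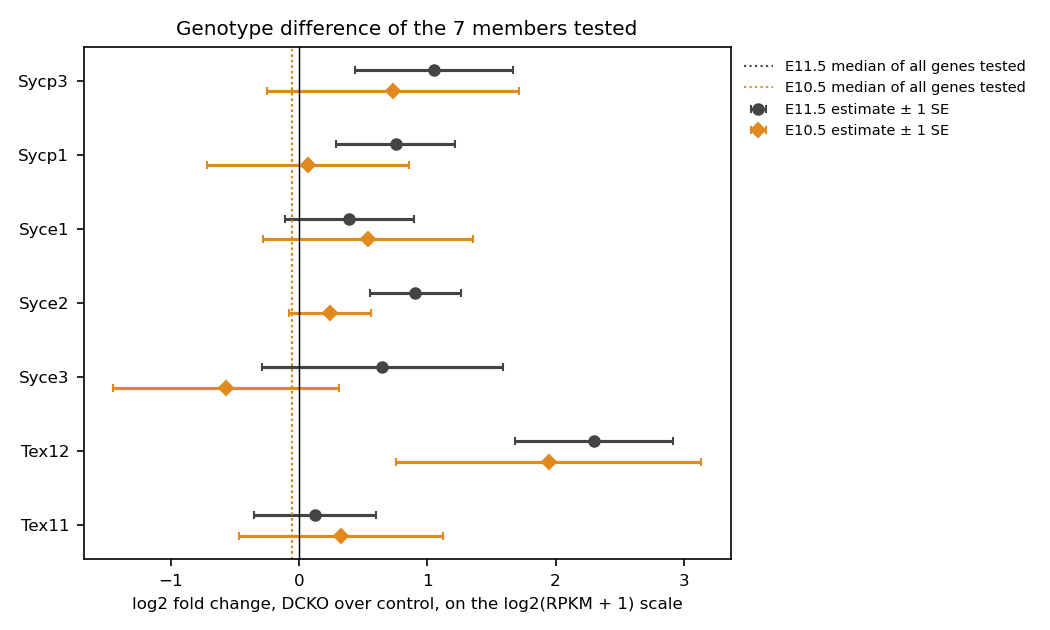
Log2 difference of DCKO over control on the log2(RPKM + 1) scale (x axis) for the 7 genes tested (y axis), with bars of 1 SE; black circles are E11.5, orange diamonds E10.5, and dotted lines are the medians of all genes. All 7 E11.5 estimates are above 0, from 0.12 for Tex11 to 2.30 for Tex12, and at E10.5 all but Syce3 are.

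The libraries were checked against markers of germ cells and of other cells. The 12 germ cell genes, such as Pou5f1 and Dppa3, were all detected, and their summed level ran from 2055 to 5705 RPKM in DCKO and from 464 to 6716 RPKM in control libraries at E11.5. Male control 3 stood apart, with a mean log2(RPKM + 1) of 3.91 over that list, the lowest of the 18, and of 4.21 over the markers of other cells, the highest. Only 3 of the 8 synaptonemal complex genes reached 1 RPKM in it, against at least 4 in each other E11.5 library. Summed levels over the E11.5 libraries ran from 0.979 to 336 RPKM in DCKO and 1.59 to 440 RPKM in control libraries for 9 gonadal somatic genes. For 6 endothelial genes they ran from 37.8 to 164 RPKM in DCKO and 47.5 to 184 RPKM in controls.

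The 7 erythroid genes summed to between 0 and 1652 RPKM in DCKO and 0.665 and 2257 RPKM in controls, and the 6 macrophage genes to between 0 and 26.8 RPKM in DCKO and 0 and 43.4 RPKM in controls. The 3 libraries with the highest mean over markers of other cells were male control 3, female DCKO 4 and male DCKO 1, the last being the library with 199 RPKM of Tex12. Without these 3, a choice made after seeing the data, the log2 difference was 1.60 for Tex12 (adjusted p = 0.673 by limma) and 0.54 for Syce2 (adjusted p = 0.716), and the median over the 7 genes was 0.61. With the germ cell list mean as a covariate it was 2.27 for Tex12 (adjusted p = 0.430) and 0.96 for Syce2 (adjusted p = 0.324). At E10.5 the germ cell list summed to between 4317 and 5069 RPKM in DCKO and between 4521 and 6835 RPKM in control libraries. In such bulk libraries, fewer cells of a type and less RNA per cell cannot be told apart.

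**Figure D4:**
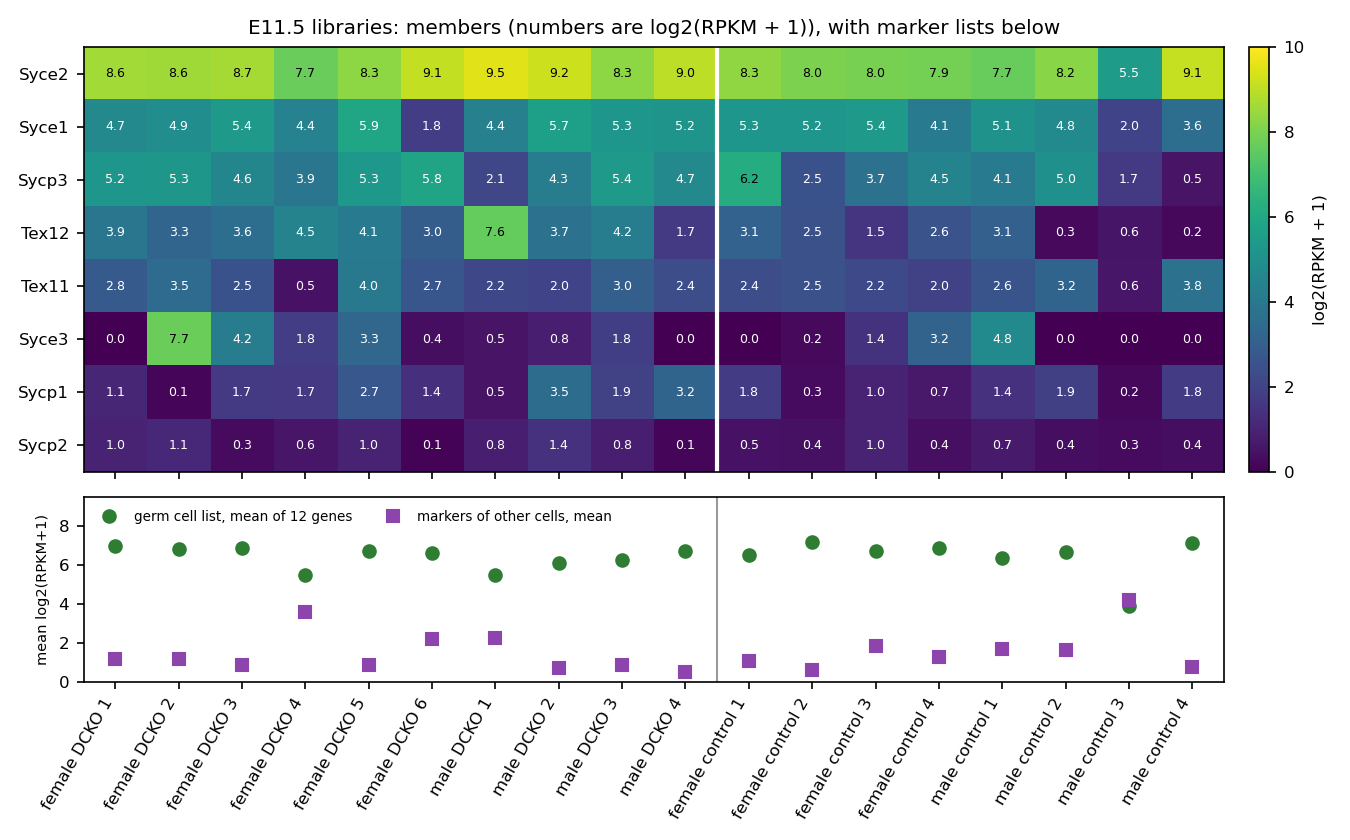
Upper panel: log2(RPKM + 1) of the 8 genes (rows, colour scale at right) in each E11.5 library (columns, DCKO left of control); lower panel: mean log2(RPKM + 1) of 12 germ cell genes (circles) and of markers of other cells (squares). Male control 3 has the lowest germ cell mean, 3.91, and the highest other-cell mean, 4.21.

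Within females, 6 of 7 genes had a log2 difference above 0 with a median of 0.52, with 47.8% of all genes above 0. Limma called 0 of the 7, against 1 gene in the table (0.00789%), and 0 of the 7 at an unadjusted p under 0.05, against 2.17% of all genes. Within males, 5 of 7 were above 0 with a median of 1.24, with 43.6% of all genes above 0. Limma called 0 of the 7, against 4 genes in the table (0.0316%), and 2 at an unadjusted p under 0.05, Tex12 and Syce2, against 6.95% of all genes. Tex12 averaged 13.1 ± 5.32 RPKM over 6 female DCKO libraries and 4.78 ± 2.47 RPKM over 4 female controls (mean ± SD), a log2 difference of 1.31 (SE 0.83, adjusted p = 1.00 by limma). In males it averaged 57.8 ± 94.3 RPKM in DCKO and 2.06 ± 3.55 RPKM in control libraries (SD, n = 4 each), a log2 difference of 3.30 (SE 0.91, adjusted p = 0.611 by limma). With 1 library left out at a time this value was lowest at 2.19, without male DCKO 1, and highest at 4.17, without male DCKO 4. The medians in males were 15.02 RPKM in DCKO and 0.345 RPKM in control libraries. The female minus male difference of these effects was -1.99 (SE 1.23, adjusted p = 0.995 by limma), so a difference between the sexes was not shown. It was -0.88 without male DCKO 1 and -2.86 without male DCKO 4. For this difference limma called 0 of the 7 and 0 genes of the table (0%), with 0 of the 7 at an unadjusted p under 0.05 against 3.58% of all genes.

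Syce2 had a log2 difference of 0.42 (SE 0.48, adjusted p = 1.00 by limma) in females and 1.39 (SE 0.52, adjusted p = 0.652 by limma) in males. The male value was 0.68 without male control 3, the lowest, and 1.88 without male control 4, the highest. The female minus male difference was -0.97 (SE 0.71, adjusted p = 0.995 by limma), or -0.26 without male control 3 and -1.46 without male control 4. In males the markers of other cells also lay lower in DCKO than in control libraries, with 0 of 8 gonadal somatic genes tested, 0 of 6 endothelial genes and 0 of 5 erythroid genes above 0, and median log2 differences of -1.24, -0.69 and -1.53. Of 3 macrophage genes 1 was above 0, with a median of -2.27. In females 7 of 8 gonadal somatic, 6 of 6 endothelial, 5 of 5 erythroid and 0 of 3 macrophage genes were above 0, with medians of 0.69, 0.72, 1.17 and -0.27. Without the 3 libraries highest in markers of other cells, the choice made after seeing the data, Syce2 had a log2 difference of 0.58 in females and 0.51 in males, and the female minus male difference was 0.07. For Tex12 the values without them were 1.16 in females and 2.04 in males, with a female minus male difference of -0.88.

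Females were compared with males over both genotypes at E11.5, a comparison of interest for Tex11 on the X chromosome. Tex11 averaged 5.79 ± 4.24 RPKM over 10 female libraries and 5.57 ± 3.78 RPKM over 8 male libraries (mean ± SD), and its female minus male log2 difference was -0.0034 (SE 0.48, adjusted p = 1.00 by limma). Sycp3 averaged 31.9 ± 20.9 RPKM over 10 female libraries and 17.1 ± 14.8 RPKM over 8 male libraries (mean ± SD), a log2 difference of 1.17 (SE 0.62, adjusted p = 0.873 by limma). Of the 7 genes 4 were above 0, against 56.2% of all genes. Limma called 0 of the 7 and 5 genes of the table (0.0395%), with 0 of the 7 at an unadjusted p under 0.05 against 5.7% of all genes. In controls alone 5 of 7 were above 0, against 53.4% of all genes. There limma called 0 of the 7 and 1 gene of the table (0.00789%), with 0 of the 7 at an unadjusted p under 0.05 against 2.35%. Germ cell genes lay higher in females too, with 12 of 12 above 0 and a median of 0.57 over both genotypes and 12 of 12 with 0.85 in controls. Over both genotypes 2 of 8 gonadal somatic, 1 of 6 endothelial, 4 of 5 erythroid and 1 of 3 macrophage genes were above 0, with medians of -0.27, -0.44, 0.11 and -0.48. In controls these were 0 of 8, 0 of 6, 0 of 5 and 1 of 3, with medians of -1.07, -1.13, -1.16 and -1.16. Without the 3 libraries highest in markers of other cells, the female minus male log2 difference over both genotypes was 0.76 for Sycp3 and -0.14 for Tex11. In controls alone the part of these markers was not tested.

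At E10.5 the genotype groups overlapped for all 8 genes. Tex12 again had the greatest log2 difference of the 7 genes tested, with 0.282 and 22.1 RPKM in the female and 7.11 RPKM in the male DCKO libraries, against 0 and 0.0786 RPKM in female and 0 and 10.1 RPKM in male controls. Values of other genes at this stage follow the same order of sexes. A single control, male control 2, lay among the DCKO values, while the other 3 were at or near 0. The log2 difference was 1.95 (SE 1.19, adjusted p = 0.991 by limma; exact permutation p = 0.286, where 35 arrangements allow no p under 0.0286). It was 0.80 without female DCKO 2 and 2.88 without female DCKO 1.

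The E10.5 sample titles carry a number, whose meaning the labels do not give, and several levels differed along it, a pattern picked out after seeing the data. Number 67 marks female DCKO 2, male DCKO 1, female control 2 and male control 2, number 58 marks female DCKO 1 and female control 1, and number 57 marks male control 1. Sycp3 lay between 6.19 and 25.3 RPKM in the libraries of number 67, against 1.31 to 3.79 RPKM in the other 3. Syce3 was above 0 only in libraries of number 67, and the 3 Tex12 values above 1 RPKM were all among them. With the number as a block, the log2 difference between genotypes was 1.44 for Tex12, 0.39 for Sycp3 and -0.87 for Syce3 (adjusted p = 0.912, 0.936 and 0.912 by limma).

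Syce2 had 387, 334 and 390 RPKM in DCKO against 407, 299, 221 and 329 RPKM in control libraries at E10.5, and all 3 DCKO libraries lay above 3 of the 4 controls. Its log2 difference was 0.24 (SE 0.32, adjusted p = 0.991 by limma; exact permutation p = 0.314). Sycp3 had 1.31, 25.3 and 17.9 RPKM in DCKO against 3.79, 13.9, 2.08 and 6.19 RPKM in control libraries, a log2 difference of 0.73 (SE 0.98, adjusted p = 0.991 by limma). Both the lowest and the highest Sycp3 value belonged to DCKO libraries.

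Syce1 averaged 36.3 ± 13.1 RPKM over 3 DCKO libraries and 33.0 ± 29.4 RPKM over 4 controls (mean ± SD), with a log2 difference of 0.54 (SE 0.82). Tex11 averaged 5.04 ± 4.54 RPKM in DCKO and 3.59 ± 2.82 RPKM in controls, with a log2 difference of 0.33 (SE 0.80). Sycp1 averaged 1.40 ± 0.548 RPKM in DCKO and 1.85 ± 2.25 RPKM in controls, with a log2 difference of 0.07 (SE 0.79), and it was listed at 0 in male control 1. These 3 did not pass the threshold, nor did Syce3.

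Syce3 had 0, 0.351 and 0.971 RPKM in DCKO against 0, 6.34, 0 and 1.23 RPKM in controls, a log2 difference of -0.57 (SE 0.88, adjusted p = 0.991 by limma). Sycp2 reached at most 0.594 RPKM in the 7 E10.5 libraries and was not fitted. Of the 7 genes tested 6 were above 0, with a median of 0.33, against 46.8% of all 11584 genes and a median of -0.05. By limma 0 of the 7 passed, as did 0 genes of the table (0%), and at an unadjusted p under 0.05 there were 0 of the 7 against 3.09% of all genes. The targeted gene Dnmt1 did not pass at this stage either, with a log2 difference of -2.07 (SE 0.38, adjusted p = 0.991 by limma). All DCKO libraries lay above all controls for 2.28% of the genes tested and for 0 of the 7.

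The 2 stages were deposited in separate tables and are given side by side with no test. Syce2 averaged 366 ± 170 RPKM at E11.5 (SD, n = 18) and 338 ± 64.8 RPKM at E10.5 (SD, n = 7), and Syce1 29.2 ± 15.3 RPKM at E11.5 and 34.4 ± 22.2 RPKM at E10.5. Sycp3 averaged 25.3 ± 19.4 RPKM at E11.5 and 10.1 ± 9.15 RPKM at E10.5. The median of Tex12 was 7.62 RPKM at E11.5 and 0.282 RPKM at E10.5, and in controls alone it was 3.19 RPKM at E11.5 and 0.0393 RPKM at E10.5. Syce2, Syce1, Sycp3 and Tex12 filled the first 4 places by mean level at both stages, and Sycp2 the last.

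Among other genes of the pathway, 29 were tested at E11.5 and 30 at E10.5, and 0 passed the threshold at either stage by limma. At an unadjusted p under 0.05 there was 1 of 29 at E11.5, Trip13, against 5.46% of all genes, and there were 2 of 30 at E10.5, Stag3 and Rec114, against 3.09%, all 3 higher in DCKO. The counts above 0 given here for each list stand beside 45.0% of all genes at E11.5 and 46.8% at E10.5. Of 13 listed symbols of partners of the complex, 7 were tested at each stage, with 6 above 0 at E11.5 (median log2 difference 0.28) and 4 at E10.5 (0.23). Trip13, the ATPase that strips HORMAD proteins from synapsed axes, averaged 67.5 ± 22.4 RPKM over 10 DCKO libraries and 39.2 ± 16.1 RPKM over 8 controls (mean ± SD) at E11.5, a log2 difference of 0.93 (SE 0.34, adjusted p = 0.902 by limma). At E10.5 it averaged 36.2 ± 11.3 RPKM over 3 DCKO libraries and 54.2 ± 12.2 RPKM over 4 controls (mean ± SD), the opposite order. Hspa2, a chaperone needed to disassemble the complex in spermatocytes, averaged 0.564 ± 0.528 RPKM in DCKO and 2.32 ± 2.49 RPKM in control libraries at E11.5, a log2 difference of -0.82 (SE 0.44).

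Of the chromosome axis and cohesin genes, 3 of 8 tested were above 0 at E11.5 (median -0.19) and 5 of 8 at E10.5 (median 0.21). Stag3, a meiotic cohesin subunit, averaged 56.4 ± 26.6 RPKM over 10 DCKO libraries and 36.7 ± 18.05 RPKM over 8 controls (mean ± SD) at E11.5, a log2 difference of 0.65 (SE 0.41). At E10.5 Stag3 averaged 66.6 ± 14.3 RPKM over 3 DCKO libraries and 34.3 ± 11.3 RPKM over 4 controls (mean ± SD), a log2 difference of 1.01 (SE 0.40, adjusted p = 0.991 by limma). Smc1b, the meiotic cohesin partner of SMC3, had 0.61 (SE 0.33) at E11.5, and Hormad1, an axis protein, had 1.02 (SE 0.61) at E10.5, both log2 differences.

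Of the recombination genes, 8 of 12 tested were above 0 at E11.5 (median 0.22) and 8 of 13 at E10.5 (median 0.14). Tex15 had a log2 difference of 0.52 (SE 0.39) and Mei4, which is needed for meiotic DNA breaks, 0.46 (SE 0.37) at E11.5. At E10.5 these were 2.75 (SE 1.02, adjusted p = 0.991 by limma) for Rec114, a partner of MEI4, and 1.81 (SE 0.84) for Mnd1, a factor of strand exchange. Of the telomere attachment genes only Sun1 and Sun2 were tested, the nuclear envelope proteins that tether telomeres, with 0 of 2 above 0 at E11.5 (median -0.16) and 2 of 2 at E10.5 (median 0.94). Stra8, the retinoic acid induced gene of meiotic entry, was listed at 0 in 2 of 3 DCKO and 3 of 4 control libraries at E10.5, and its highest level was 19.7 RPKM in 1 DCKO library. Its log2 difference there was 1.74 (SE 0.94, adjusted p = 0.991 by limma). At E11.5 Stra8 reached 1 RPKM in 3 of 10 DCKO and 0 of 8 control libraries, at most 17.4 RPKM. The E11.5 log2 difference was 0.72 (SE 0.50, adjusted p = 0.946 by limma). Fkbp6, an immunophilin of the complex, had a log2 difference of 0.81 (SE 0.37) at E10.5.

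Correlations between the 8 genes across the 18 E11.5 libraries covered a wide range. Other gene pairs were not taken as a reference, so whether the 8 vary together was not tested. Low levels also limit these correlations, with Syce3 listed at 0 in 6 of 18 libraries and Sycp2 reaching 1 RPKM in 3 of 18. Among their 28 pairs, Pearson correlations of log2(RPKM + 1) ran from -0.20 between Sycp1 and Syce3 to 0.54 between Sycp2 and Syce1, over libraries that share genotype and sex groups. Over the same 18 libraries and 12667 genes, the genes most like Syce2 were Rpl41 (r = 0.93, Spearman's rho = 0.87) and Rpl36 (r = 0.91, rho = 0.88). Those most like Tex12 were Tomm20 (r = 0.84, rho = 0.70) and Olfr318 (r = 0.82, rho = 0.80). Olfr318 was listed at 0 in 6 of 8 control and 1 of 10 DCKO libraries, with medians of 0 and 1.25 RPKM. Sycp3 was most like Tspo (r = 0.87, rho = 0.81) and Usp26 (r = 0.83, rho = 0.69), and Syce1 was most like Rpl10l (r = 0.81, rho = 0.68) and Rfc5 (r = 0.80, rho = 0.61). These are descriptions over libraries of both genotypes, and none of the nearest genes was another of the 8. They are the highest values picked from 12667 genes, and the level that such a choice gives by chance was not tested. Rpl41 averaged 10923 ± 2262 RPKM over 10 DCKO libraries and 7856 ± 2874 RPKM over 8 controls (mean ± SD). Rpl36 averaged 4336 ± 1351 RPKM in DCKO and 2977 ± 1267 RPKM in controls, both higher in DCKO, as was Syce2. The RPKM of all genes summed to a median of 745310 in DCKO and 618092 in control libraries. That sum was lowest in male control 3 and highest in male control 4, also the lowest and highest controls for Syce2.

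Reads of overlapping genes could be mixed, since no source used here says that strand was kept. In the GENCODE annotation of GRCm38, Tex12 overlaps Il18, Syce2 overlaps Gcdh and Sycp3 overlaps Chpt1, each on the opposite strand. Il18 was listed at 0 in 7 of 10 DCKO and 7 of 8 control libraries at E11.5 and reached at most 2.09 RPKM. Gcdh averaged 7.39 ± 5.11 RPKM in DCKO and 7.26 ± 3.67 RPKM in controls, far below Syce2. Chpt1 averaged 4.27 ± 2.50 RPKM in DCKO and 8.48 ± 5.38 RPKM in controls (SD, n = 10 and n = 8).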

How the data were processed

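RNA of sorted GFP-positive PGCs was extracted with the RNeasy Micro Kit, amplified with the Ovation RNA-Seq System V2 and made into libraries with an Encore Rapid kit, per the labels' protocols. The authors deposited 1 table of RPKM values per stage, with 24318 genes in each. The submitters' processing notes name mm9, TopHat2 2.1.0, Cufflinks 2.2.1 and Cuffdiff, and no source used here gives gene models or filters. Low values are not multiples of single reads, so depth is unknown, no counting interval can be given, and a gene listed at 0 may be a failed estimate.

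The tables of the stages were tested apart, with limma 3.58.1 in R 4.3.3 (intensity trend, two-sided) on log2(RPKM + 1), over genes averaging 1 RPKM or more: 12667 at E11.5 and 11584 at E10.5. This scale understates fold changes of low genes. At E11.5 the model held 4 sex-by-genotype means, with the female and male differences averaged for genotype (14 residual degrees of freedom). The E10.5 model was additive in genotype and sex (4 residual degrees of freedom). Benjamini-Hochberg adjustment ran over all genes tested, with a threshold of 0.05. Exact permutations were enumerated in Python 3.11.15 with numpy 2.4.6. The fits were tested on simulated data with the same spread for every gene and large changes, an easier setting than the genes followed here. Highest correlations between libraries were 0.878 at E11.5 and 0.831 at E10.5, and no 2 columns held the same values.

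The members, gene lists and motifs were chosen with earlier results of these data known. Genes outside the complex were named by rule: the 2 with the smallest p in each list, since none passed, and the 2 nearest by correlation to each of the 4 highest members. Alternatives were other pseudocounts (0.1, 0.5), filters, scalings, library weights, replicate blocks, a covariate and leaving out each library.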

Additional observations from a re-analysis of the deposited data

Results flagged for a closer look

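In 7 of 32 tests, each of 1 gene in 1 sex and genotype group of at least 4 libraries on the RPKM scale, a single library stood far from the rest of its group. Chance gives about 1 in 20 groups only where values follow a normal distribution, which RPKM need not. On log2(RPKM + 1), 4 of the 7 would still stand apart, and Tex12 in male DCKO 1, Syce3 in female DCKO 2 and Sycp2 in male control 1 would not. Tex12 was at 199 RPKM in male DCKO 1, with the next male DCKO library at 17.6 RPKM. Tex12 was also at 7.37 RPKM in male control 1, with the next male control at 0.491 RPKM. Syce3 was at 214 RPKM in female DCKO 2, against 17.7 RPKM in the next library, and at 26.0 RPKM in male control 1, where the other male controls were listed at 0. Syce1 was low in female control 4, at 15.9 RPKM against 36.7 RPKM in the nearest female control. Sycp2 was high in female control 3, at 1.02 RPKM against 0.394 RPKM, and in male control 1, at 0.660 RPKM against 0.306 RPKM. Male control 1 was thus the high library of its group for Tex12, Syce3 and Sycp2. What sets these libraries apart was not tested.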

How the results depend on the processing

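In every setting run, 0 of the 8 genes that could be fitted passed the adjusted threshold in any comparison. Across all comparisons 1013 values were classed as unchanged, 41 turned direction and 1 exact permutation p lost its side of the unadjusted threshold. The 1013 include counts and medians, which could shift in size and still be classed as unchanged. The p that lost its side was that of Syce2 at E11.5. It rose from 0.0198 to 0.0567 by exact permutation without male control 3. Counts of genes grew in 8 cases, from 0 at E10.5 or by more than 1.5 times at E11.5. The causes were not tested. The log2 difference between genotypes at E11.5 ranged over all settings from 1.60 to 3.02 for Tex12 and from 0.54 to 1.15 for Syce2. Without each library in turn, Tex12 ranged from 1.75 to 2.74 (exact permutation p from 0.000165 to 0.00499) and Syce2 from 0.55 to 1.15 (p from 0.00252 to 0.0567). The count of all genes called at E11.5 was 5 with library weights, 5 without male DCKO 3 or male control 1, and 2 to 5 over all libraries left out. At E10.5 it was 0 to 11: 11 without male DCKO 1, 4 without female DCKO 1 or 2, and 1 without male control 1 or 2.

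With library weights the log2 differences were -0.38 for Syce3 at E11.5 and -0.37 for Sycp1 at E10.5. Sycp1 at E10.5 was -0.16 with the germ cell covariate. With a library left out at E10.5, Sycp1 ranged from -0.36 to 0.51, Tex11 from -0.18 to 0.98, Sycp3 from -0.12 to 1.82 and Syce1 from -0.040 to 1.14, and Tex11 at E11.5 from -0.20 to 0.34. Tex11 at E10.5 also turned direction by exact permutation at a pseudocount of 0.1 (p = 0.971), a setting added after seeing the data.

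For sex over both genotypes, Tex11 was 0.011 at a pseudocount of 0.1, 0.0032 at 0.5 and -0.33 to 0.21 with a library left out. Syce2 was 0.10 after quantile normalization and -0.41 to 0.19 with a library left out. Syce1 was -0.17 with weights, -0.13 with the covariate, -0.16 without the 3 libraries highest in other-cell markers (added after seeing the data) and -0.046 to 0.54 with a library left out. Syce3 was -0.29 with weights, and Tex12 -0.043 to 0.95 with a library left out. Without those 3 libraries the Syce2 difference between the sexes' effects was 0.066.

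At E11.5 2 of 8 pairs with the same replicate number had a correlation of deviations over 0.1, the highest at 0.150. By title number 6 of 13 pairs did, with correlations from -0.023 to 0.490. The highest was between female DCKO 4 and male control 3, both among the 3 libraries highest in markers of other cells. At E10.5 these counts were 0 of 2 and 0 of 3 pairs. With 2 libraries in a group their deviations mirror each other, and both female pairs had the same correlation of 0.00675. The E10.5 counts are therefore no check of pairing. Whether samples that share a number belong together was not tested. With a replicate block by replicate number the E11.5 median was 0.85 with 2 genes of the table called, and by title number 0.64 with 2; the E10.5 medians were 0.51 and 0.11 with 0 genes called. Tex11 was -0.047 and -0.24 at E11.5 under these blocks and -0.034 at E10.5 by replicate number, Sycp1 at E10.5 was -0.36 by title number, and Syce2 for sex was 0.43 by title number. With unknown depth, no counting error can be set beside genes near 1 RPKM.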
